A study of Mus musculus with 6 samples.

Results

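The annexins described here are 8 mouse genes, Anxa1, Anxa2, Anxa3, Anxa4, Anxa5, Anxa6, Anxa7 and Anxa11, taken by gene symbol from the probe table of an Affymetrix MGU74Av2 oligonucleotide array. They have 11 of the 12422 probe sets on the array that are not controls. Of these 11, 10 belong to 1 gene each and cover 7 members, with 3 for Anxa1 and 2 for Anxa7. The probe set of Anxa11 is also assigned to 2 transcribed pseudogenes, Gm2260 and Gm2274, so its signal is given as that of a shared probe set. The arrays carried RNA from the tibialis anterior, a fast muscle of the shin, of mice killed 48 h after 50 eccentric contractions, which stretch the active muscle, or 50 isometric contractions, which hold its length. Contralateral legs, which contracted just enough for a torque reading, gave the control muscle, and the labels do not say which exercise their animals had done. The sources used here do not give the strain, sex or age of the mice.

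RNA of 4 animals was combined for each of the 3 groups and divided over 2 arrays, called A and B. A group is therefore 1 biological sample, no p-value for the kind of contraction can be had, and each SD below is the spread of 2 arrays of 1 pool, which leaves out the animals. A probe set was tested where its signal lay above a floor of 120.8 (the 40th percentile of all signals) on the A and B arrays of 1 or both pools compared. It was called where the pools differed by at least 2-fold, a log2 difference of 1, and all 4 pairings of one pool's arrays with the other's went the same way. Whole-tissue signals cannot tell fewer cells of a type from less RNA per cell. Control A and isometric B had more 18S rRNA signal than their partners (15860 against 3870, and 23476 against 1761), so values without them are given where they matter. Of 13 markers of fast fibres 12 lay above the floor in all pools, and Myh2 was below it.

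Annexins are cytosolic proteins that bind acidic membrane phospholipids when calcium rises. Their calcium-binding cores are alike, and their N-terminal heads differ and set the partners. When a muscle fibre's membrane tears, calcium enters and annexins gather at the wound, where they help to fold, patch and cap it together with dysferlin and S100 proteins. Lengthening contractions are a known way of tearing fibre membranes. Annexins are not special to muscle fibres: macrophages, other leukocytes, fibroblasts and endothelial cells make several of them.

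**Figure D1:**
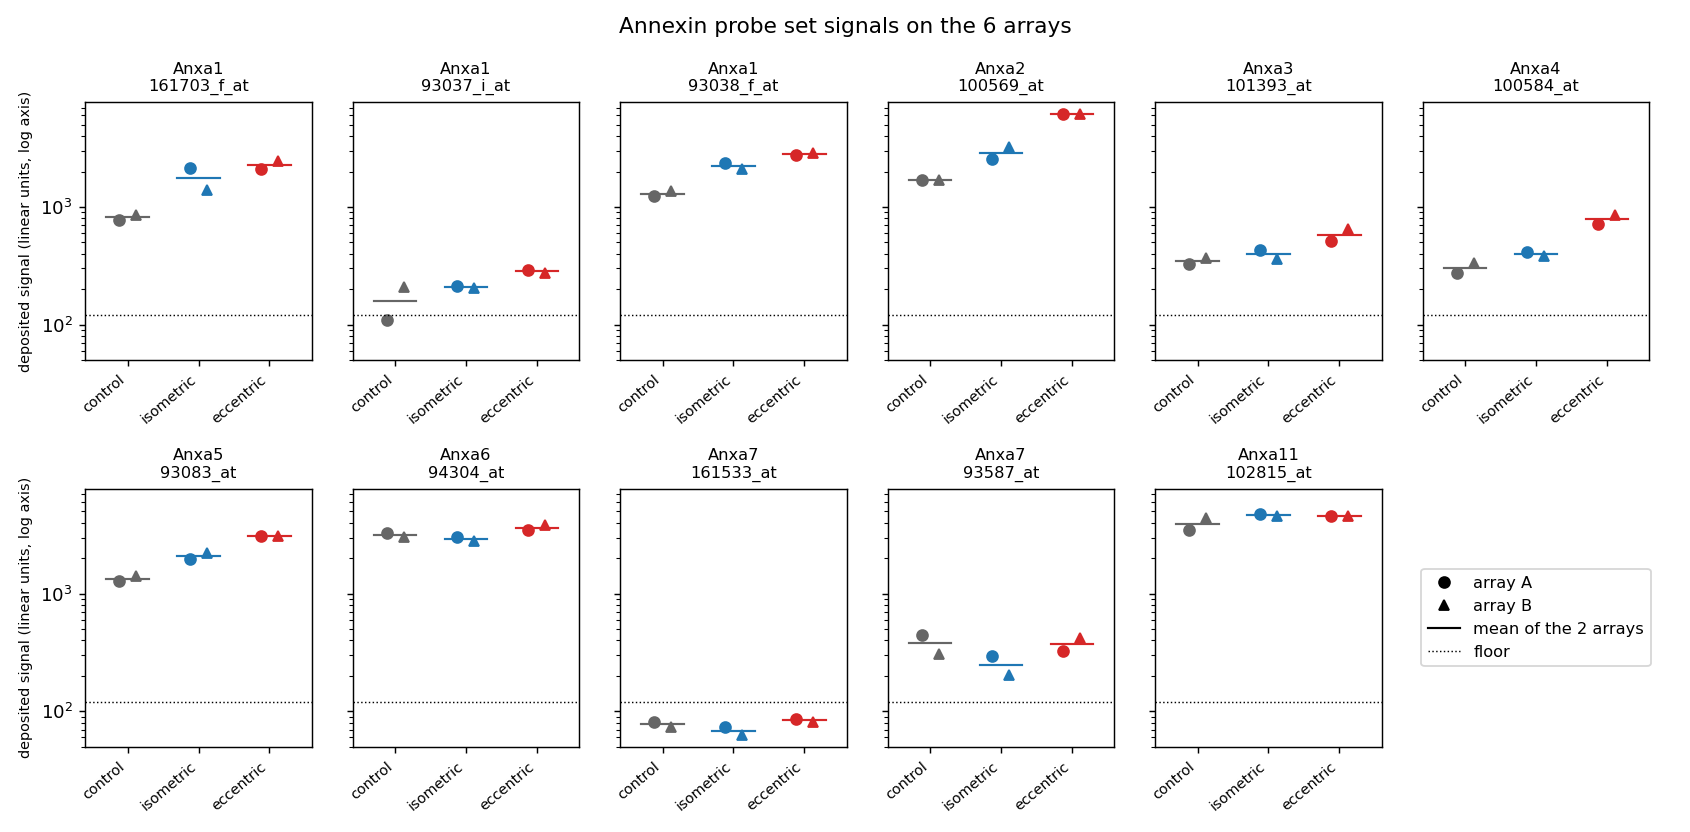
Deposited signal (linear units, log axis) of each of the 11 annexin probe sets on the 2 control, 2 isometric and 2 eccentric arrays. Circles are arrays A, triangles arrays B, bars the mean of the 2 arrays, and the dotted line is the floor of 120.8. The arrays of Anxa2, Anxa4, Anxa5 and 1 probe set of Anxa1 stand in the order control, isometric, eccentric without overlap, and the lower Anxa7 probe set lies below the floor throughout.

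In the muscle after eccentric contractions, 4 of the 8 annexins (Anxa1, Anxa2, Anxa4 and Anxa5) had signals more than 2-fold above the control muscle. Of the 10 annexin probe sets tested 5 were called higher and 0 lower, where 4.86% of the 7486 probe sets tested were called higher and 1.11% lower. The arrays did not overlap, with the eccentric pool on top, for 9 of the 10, which held for 30.1% of all probe sets tested. The median log2 difference was 0.97 over the annexin probe sets and -0.03 over all. One of the 10, a dim probe set of Anxa1, passed the filter through the exercised pools, so these counts describe the probe sets that passed and are no test. The other 9 lay above the floor on all 6 arrays, and the 5 called were among them. The same 5 were called without control A, with Anxa2 at a log2 difference of 1.88. Fewer array pairings had to go the same way there, and the share of all probe sets called was not computed.

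Anxa2, which with S100a10 forms a complex that bridges membranes and binds actin, differed most. Its signal was 1697.2 and 1682.6 on the control arrays, 2550.9 and 3236.5 on the isometric arrays and 6216.4 and 6164.3 on the eccentric arrays. The 3 pools did not overlap, and the isometric pool lay between the others. The eccentric mean was 6190 ± 36.9 (SD, n = 2 arrays) against 1690 ± 10.3 in the control pool, a fold of 3.66 with a range of 3.63 to 3.69 over the 4 array pairings. Of all probe sets tested in that comparison, 99.5% had a smaller difference. The isometric mean was 2894 ± 485 (SD, n = 2), 1.70-fold above the control pool (pairings 1.503 to 1.92), which was below the size needed for a call.

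Anxa1 inhibits phospholipase A2, is induced by glucocorticoids and, once outside the cell, acts on formyl peptide receptors of leukocytes. Its brightest probe set, 93038_f_at, gave 1245.1 and 1353.6 in the control, 2379.1 and 2101.4 in the isometric and 2775.2 and 2849.8 in the eccentric pool. The exercised pools did not overlap with the control pool, and the isometric arrays came near the eccentric ones. The fold was 2.17 for eccentric against control (pairings 2.05 to 2.29) and 1.72 for isometric against control (1.55 to 1.91). A second probe set, 161703_f_at, gave 776.8 and 853.7 in the control, 2130.7 and 1380.8 in the isometric and 2088.3 and 2473.7 in the eccentric pool. Isometric A thus lay above eccentric A on this probe set, and the exercised pools overlapped. Its fold was 2.79 for eccentric against control and 2.11 for isometric against control, both called. The third, 93037_i_at, was dim, with 108.4 and 209.6 in the control, 214.0 and 204.6 in the isometric and 292.0 and 273.3 in the eccentric pool. Control A lay below the floor there, and the eccentric difference of 1.78-fold was not called. With control B left out that probe set was called higher, at a log2 difference of 1.23, where fewer array pairings had to go the same way. The suffix f marks probes shared with a sequence family and the suffix i a set with fewer probes than usual, so the 3 probe sets are not independent measurements of Anxa1. Both called probe sets carry the suffix f, so part of their signal may come from other sequences of the family.

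Anxa5, which binds phosphatidylserine and assembles into lattices on damaged membrane, had 1276.4 and 1399.9 in the control, 1955.2 and 2196.7 in the isometric and 3117.9 and 3115.5 in the eccentric pool. The arrays of the 3 pools did not overlap. The eccentric pool was 2.33-fold above the control pool (pairings 2.23 to 2.44), and the isometric pool 1.55-fold (1.40 to 1.72). Anxa4, which binds and curves membranes and is best known from epithelia, had 273.4 and 332.6 in the control, 411.2 and 383.0 in the isometric and 721.7 and 845.4 in the eccentric pool. It too followed the order control, isometric, eccentric with no overlap. Its eccentric signal was 2.59-fold above control (pairings 2.17 to 3.09) and its isometric signal 1.32-fold (1.15 to 1.504).

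Anxa3, an annexin abundant in neutrophils, lay just short of these. Its signal was 327.0 and 367.7 in the control, 431.6 and 360.7 in the isometric and 508.1 and 654.8 in the eccentric pool. The eccentric arrays lay above all others at 1.66-fold over control (pairings 1.38 to 2.003), not called, while the isometric arrays overlapped with the control arrays.

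Of the remaining members none was called against the control pool. Anxa6, the annexin with a doubled core, which forms the repair cap at torn muscle membranes and modifies muscular dystrophy in mice, had 3307.2 and 3005.0 in the control, 3056.7 and 2819.5 in the isometric and 3461.0 and 3829.2 in the eccentric pool. Its eccentric arrays lay above the control arrays by 1.15-fold (pairings 1.05 to 1.27), and its isometric arrays overlapped with them. Anxa7, or synexin, which promotes fusion of membranes, had 449.5 and 306.1 in the control, 293.6 and 202.3 in the isometric and 325.6 and 420.5 in the eccentric pool on its brighter probe set. The control and eccentric arrays overlapped, and both isometric arrays lay below the control arrays, by a log2 difference of -0.61 (pairings -1.15 to -0.06), not called. Without control A and isometric B that difference was -0.06. The dimmer Anxa7 probe set, 161533_at, stayed below the floor, at 62.7 to 85.9 over the 6 arrays, and was not tested. The probe set shared by Anxa11, which tethers RNA granules to lysosomes, had 3483.7 and 4368.7 in the control, 4765.1 and 4536.2 in the isometric and 4544.7 and 4579.4 in the eccentric pool. Both exercised pools lay above the control pool there, by 1.17-fold (eccentric) and 1.19-fold (isometric), and overlapped with each other.

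**Figure D2:**
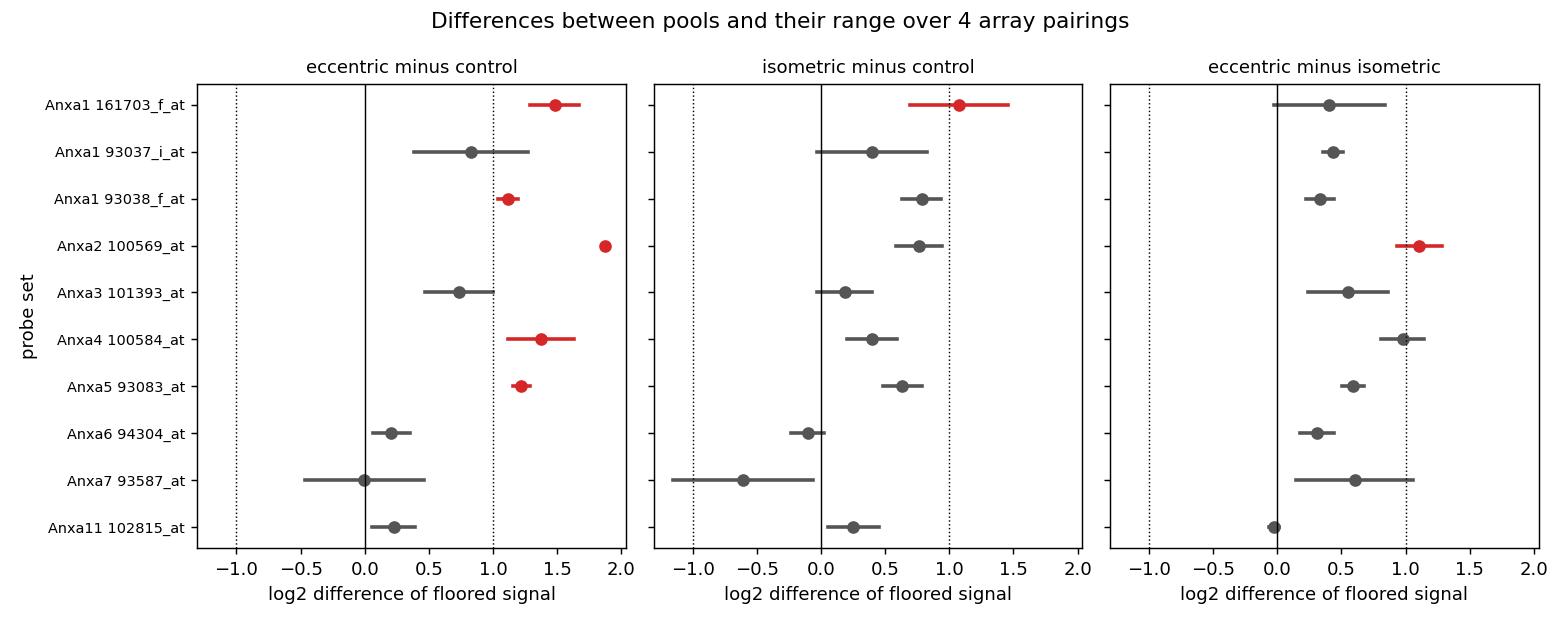
Log2 difference of floored signal between pools (points) and its range over the 4 array pairings (lines) for the 10 annexin probe sets tested, in each of the 3 comparisons. Red marks called probe sets, solid lines 0 and dotted lines the 2-fold threshold. Of the 10, 5 were called in eccentric minus control, 1 in isometric minus control and 1 in eccentric minus isometric.

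The bases upstream of the genes whose signals were higher together after eccentric contractions are shown to let their start regions be compared. RefSeq promoter windows of GRCm38.p6 were found for 6 of the 8 members. The 250 bases before the start of Anxa1 (chr19:20390672-20390921, minus strand), Anxa2 (chr9:69453433-69453682, plus strand) and Anxa5 (chr3:36475888-36476137, minus strand) follow, 5′ to 3′ on the gene's strand, with matches to 5 short motifs in capitals.
Anxa1: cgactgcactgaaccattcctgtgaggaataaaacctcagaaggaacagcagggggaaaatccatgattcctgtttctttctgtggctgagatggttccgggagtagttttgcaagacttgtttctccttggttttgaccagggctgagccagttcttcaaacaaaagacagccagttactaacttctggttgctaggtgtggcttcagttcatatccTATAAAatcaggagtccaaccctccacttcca
Anxa2: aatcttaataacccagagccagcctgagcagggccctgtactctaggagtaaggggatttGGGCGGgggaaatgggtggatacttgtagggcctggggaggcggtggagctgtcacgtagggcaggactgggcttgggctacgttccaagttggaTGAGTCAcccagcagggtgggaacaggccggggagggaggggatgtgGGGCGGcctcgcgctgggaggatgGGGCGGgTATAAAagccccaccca
Anxa5: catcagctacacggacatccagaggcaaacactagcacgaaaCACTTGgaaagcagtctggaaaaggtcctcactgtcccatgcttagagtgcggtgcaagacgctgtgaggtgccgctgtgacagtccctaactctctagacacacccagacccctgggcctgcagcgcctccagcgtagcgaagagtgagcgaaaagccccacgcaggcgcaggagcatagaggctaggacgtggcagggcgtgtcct
The motifs, searched on both strands, were the TATA box TATAAA, the AP-1 site TGANTCA, the GC box GGGCGG, the CCAAT box CCAAT and the E-box CANNTG. Among all 32851 upstream windows of this length 12.4% hold the TATA box, 6.75% the AP-1 site, 32.7% the GC box, 33.8% the CCAAT box and 66.2% the E-box. Anxa1 has the TATA box, 27 to 32 bases before its start, and no other match. Anxa2 has the TATA box 12 to 17 bases before its start, 1 AP-1 match 89 to 95 bases before it and 3 GC boxes. Anxa5 has 1 E-box and none of the other letters. Of the 2 windows of Anxa4, 1 has an E-box and the other has no match. No motif was found in the windows of all 4 genes, and such matches describe letters, not bound sites.

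After isometric contractions 1 of the 10 annexin probe sets tested was called higher, the Anxa1 probe set 161703_f_at, and 0 lower, where 0.913% of 7336 probe sets tested were called higher and 0.409% lower. The arrays did not overlap, with the isometric pool on top, for 6 of the 10, against 18.5% of all probe sets tested. The median log2 difference was 0.40 over the annexin probe sets and -0.01 over all, and it was 0.18 without control A, 0.62 without control B and 0.27 without control A and isometric B. The call of 161703_f_at ended without isometric A, at a log2 difference of 0.76. Without control A and isometric B this probe set was called, at 1.32. Only 1 array pairing was left there, and isometric A was the higher isometric array, so that call lends no support. The share of all probe sets called in these settings was not computed. At 1.5-fold in place of 2-fold 5 probe sets were called, 4 of them higher and 1 lower, with Anxa2, Anxa5 and the brightest Anxa1 probe set higher and Anxa7 lower beside it. At that threshold 3.76% of all probe sets tested were higher and 2.93% lower. This comparison and the one of the eccentric pool share the 2 control arrays.

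Between the exercised pools, Anxa2 was the annexin called higher after eccentric contractions, at 2.15-fold (pairings 1.90 to 2.44). That was 1 of 10 annexin probe sets tested, with 0 lower, where 1.64% of 7372 probe sets were called higher and 0.61% lower. The arrays did not overlap, with the eccentric pool on top, for 8 of the 10, against 28.3% of all probe sets tested. Anxa4 fell just under the size needed, at 1.97-fold (pairings 1.76 to 2.21), and Anxa5 was 1.504-fold higher (1.42 to 1.59). The 3 probe sets of Anxa1 had folds of 1.26 to 1.35, and those of Anxa3 and of the brighter Anxa7 probe set were 1.46 and 1.52. Anxa6 was 1.24-fold higher, with no overlap of the arrays, and the shared Anxa11 probe set differed by 0.981-fold with overlap. Without isometric A, Anxa2 was no longer called, at a log2 difference of 0.94, and Anxa4 was, at 1.03. Without eccentric A both were called, with Anxa4 at 1.09. These calls needed fewer array pairings to go the same way, and the share of all probe sets called there was not computed. The median log2 difference was 0.49, against 0.02 over all probe sets tested. With isometric B left out, the isometric array with more rRNA signal, the annexin median was 0.37. The log2 difference of Anxa2 was then 1.28 and that of Anxa4 0.93.

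**Figure D3:**
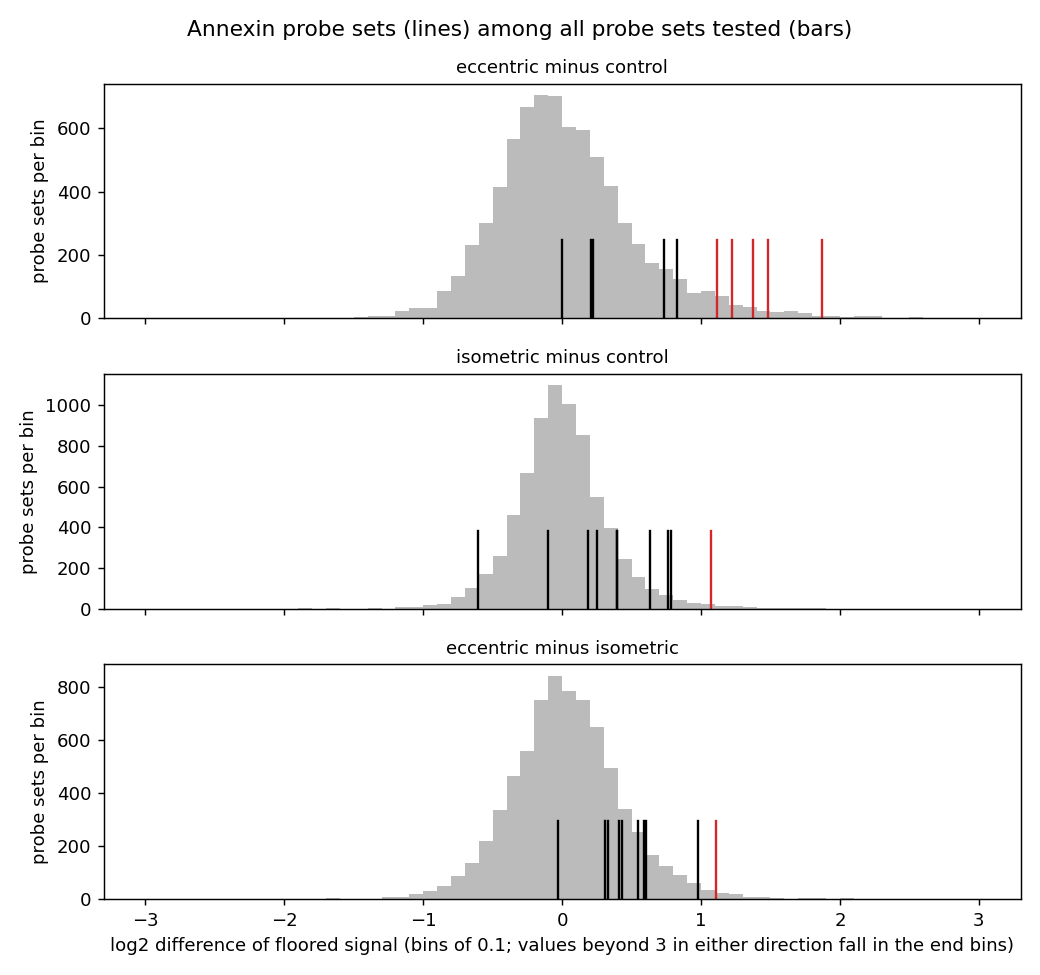
Log2 differences of floored signal of the annexin probe sets (lines, red where called) over the histogram of all probe sets tested (bars, number per bin of 0.1), for the 3 comparisons. For eccentric minus control the annexins reach from -0.00 for Anxa7 to 1.87 for Anxa2, while the median of all probe sets is -0.03.

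Partners of the annexins in the S100 family, calcium-binding proteins that dock on annexin heads, were also higher in the eccentric pool. Of the 3 with a probe set of their own, all were called higher against control, with 0 lower, where 4.86% of all probe sets tested were called higher and 1.11% lower. S100a10, the partner of Anxa2, had 1678 and 1713 in the control, 2240 and 2357 in the isometric and 3611 and 3421 in the eccentric pool. That is a 2.07-fold difference between eccentric and control, while its dimmer probe set stood at -0.05 on the log2 scale, not called. S100a6, which binds several annexins, was 2.58-fold higher and S100a4, which binds Anxa2, was 4.33-fold higher. S100a4 was the 1 of the 3 called in the isometric pool as well, where 0.913% of all probe sets tested were called higher. The partner of Anxa1, S100a11, has a probe set that it shares with 3 other entries of the probe table. This shared probe set had 1331.1 and 1272.1 in the control, 2176.5 and 1903.2 in the isometric and 3291.1 and 3475.9 in the eccentric pool, so the 3 pools did not overlap. Its eccentric signal was 2.599-fold above control and its isometric signal 1.56-fold.

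Most other genes of membrane resealing did not share the size of these differences. Of 25 measured genes of that list, among them calpains, caveolae proteins, endosomal sorting proteins and docking proteins, 1 was called higher and 0 lower in the eccentric pool. Over all probe sets tested 4.86% were called higher and 1.11% lower, so this count lies near the share of the whole array. The list had a median log2 difference of 0.18. The one called, Lgals3, encodes galectin-3, a lectin that marks damaged lysosomes and is abundant in macrophages, and it was 3.08-fold higher at 3418 ± 8.5 against 1111 ± 32.8 (SD, n = 2 arrays). Lgals3 was also the 1 of 25 called in the isometric pool, at a log2 difference of 1.01, where 0.913% of all probe sets tested were called higher. The list median there was 0.06. Ahnak, a giant scaffold that binds the complex of Anxa2 and S100a10, was named after its values were seen. It had 4743 ± 215 in the control and 7608 ± 234 in the eccentric pool, 1.60-fold and not called. The muscle calpain Capn3, also named after its values were seen, had a log2 difference of -0.54 on its brightest probe set, not called, and was called lower on its other probe sets at -1.001 and -1.02. Dysf and Trim72, central to resealing in muscle, had no probe set of their own in the probe table and so have no values here. Of 5 receptor, fibrinolysis and phospholipase genes tied to annexins, 3 were tested against the eccentric pool and 0 called. Anxa8 and Anxa10, the other annexins with probe sets, lay below the floor on all 6 arrays.

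**Figure D4:**
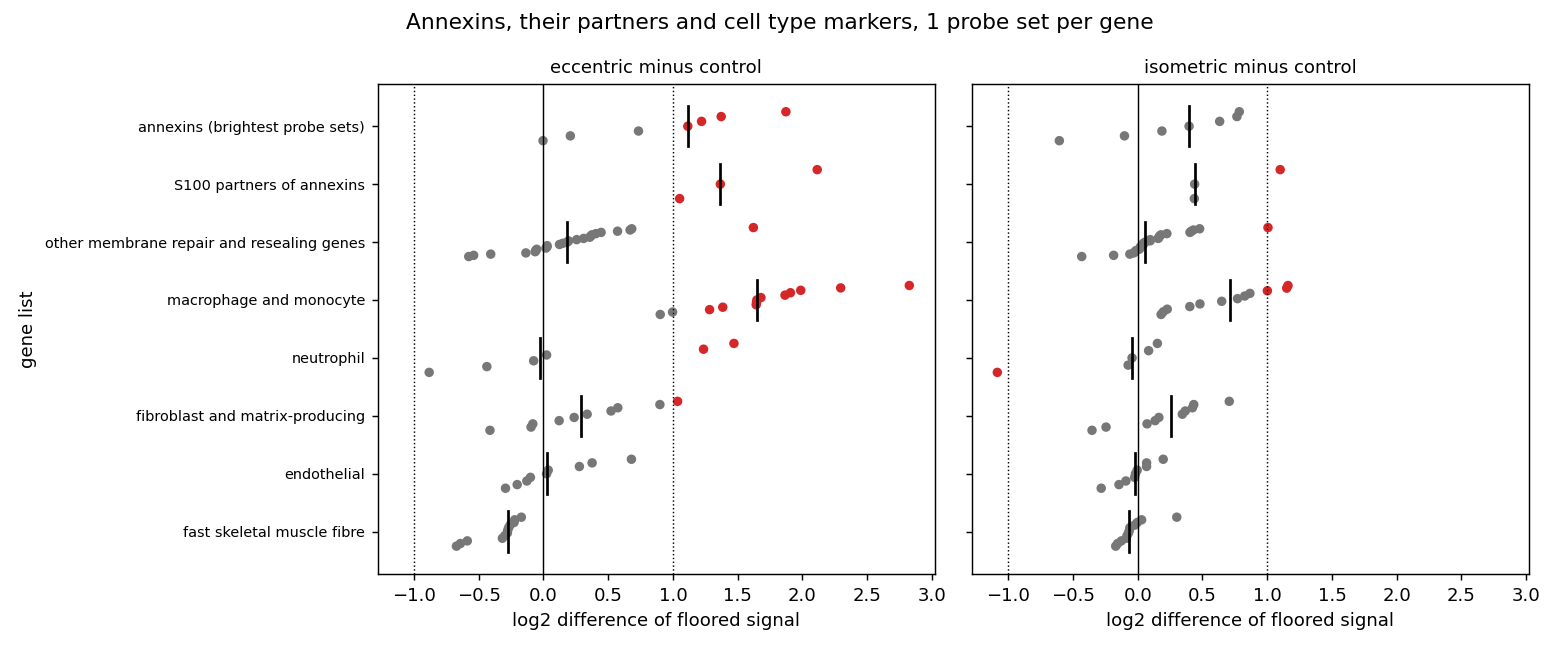
Log2 difference of floored signal of each tested gene (points, red where called, 1 probe set per gene) in the annexins, related lists and cell type markers, for the eccentric and isometric pools minus the same control pool. Black bars are list medians, which for eccentric minus control are 1.12 for annexins, 1.65 for macrophage markers and -0.28 for fast fibre markers.

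The macrophage and monocyte list had higher signals in the pools where annexins did. Of 13 tested, 11 were called higher in the eccentric pool, with a median log2 difference of 1.65, led by Cd53 at 2.83 (with control A raised to the floor), Ccr2 at 2.30, Msr1 at 1.99 and Tyrobp at 1.91. On both control arrays 10 of the list lay above the floor. Adgre1, Cd53 and Fcer1g passed the filter through 1 or both exercised pools, and Adgre1 and Cd53 were among the called. The counts and medians of this list therefore describe the markers that passed and are no test. In the isometric pool 3 of 12 were called (Cd68, Lyz2 and Msr1), with a median of 0.71. The dimmer probe set of Msr1 stood at 0.90 in the eccentric pool, not called, and at -0.17 in the isometric pool, where it did not pass the filter. The summed signal of the list over 16 probe sets was 9410 to 9774 in the control, 15805 to 16312 in the isometric and 29497 to 29802 in the eccentric pool. Among these markers Itgam, Fcgr3 and Aif1 did not pass the filter in any comparison, and they are left out of the counts of tested markers and the medians. Of 6 neutrophil markers tested 2 were called higher in the eccentric pool, S100a8 and S100a9, with a list median of -0.03, and Ly6g lay below the floor. S100a9 lay below the floor on both control arrays and passed the filter through the eccentric pool. Of 10 fibroblast and matrix genes 1 was called higher on its brightest probe set, Thy1, and the median was 0.29. A dimmer probe set of Col3a1 was also called higher, at 1.04, while its brightest at 0.57 and another at 0.49 were not called. Of 6 satellite cell and regeneration markers 1, Myog, was called higher (median 0.22). None of 9 endothelial markers was called (median 0.02), and none of 12 fast fibre markers (median -0.28). For beta-actin, the log2 difference between its 3' and 5' control probe sets, a measure of RNA integrity, was 0.43 to 0.45 on the eccentric, 0.14 to 0.28 on the isometric and 0.01 to 0.07 on the control arrays. The same difference for Gapdh did not follow that order, at 0.12 and 0.13 on the eccentric, -0.07 and 0.27 on the isometric and -0.05 and -0.07 on the control arrays. The part of these cells and of RNA integrity in the annexin differences was not tested.

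Among 4838 genes above the floor on all 6 arrays, those whose centred log2 profile lay closest to an annexin's are named, 3 for each. For Anxa2 these were Nes, the intermediate filament nestin, with a root mean square distance of 0.07, Tubb6, a beta-tubulin, at 0.08, and Sirpa, a receptor of myeloid cells, at 0.10. Nes had folds of 3.99 for eccentric and 1.68 for isometric against control. For Anxa5 the closest were Cstb, an inhibitor of cathepsins, the lysosomal protease Ctsa and the leukocyte protein Lsp1, all at a distance of 0.05. Cstb had folds of 2.44 and 1.56 in the same comparisons. For Anxa1 they were Rcn1, Thy1 and Fkbp1b, with 2.18-fold and 1.78-fold differences for Rcn1, a calcium-binding protein of the endoplasmic reticulum. For Anxa4 they were Lat2, S100a6 and Ctsh, and the distances of these 3 were 0.09 to 0.10. For Anxa6 they were Atp6v1h, Tuba4a and Sptssa, all at a distance of 0.04, with folds of 1.11 to 1.17 for eccentric against control. For Anxa3 they were Morf4l2, Crlf3 and Myl12b at 0.09 to 0.10, and for Anxa7 Adss, Sp1 and Gja5 at 0.14 to 0.18, the loosest matches of the 7 annexins. Such likeness over 6 arrays of 3 pools is a description, since all genes share the same arrays.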

How the data were processed

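Signals of 12488 probe sets on 6 MGU74Av2 arrays were analysed, 66 of them Affymetrix controls. What the authors deposited is an intensity on a linear scale for each probe set, and the trimmed means (2% removed at each end) of all arrays lay near 500.3, so each array appears scaled to 1 target. The sources used here do not name the software or background correction. Depth has no counterpart on arrays, and the number of arrays limits precision. Each array was rescaled to the average trimmed mean, values under the floor were raised to it before taking log2. Every probe set of the members was kept, and other genes were represented by the brightest probe set. The rule was run over all probe sets and tested on simulated data. Of the probe sets, 10833 had 1 gene symbol in the annotation table, 396 several and 1193 none. All probe sets of members are named, and of each list, the macrophage markers included, up to 4 called members with the largest eccentric difference. For likeness, 3 genes per annexin were ranked by distance between centred log2 profiles. The members, lists and rules were chosen with earlier results of these data known. As an alternative limma, with Benjamini-Hochberg adjustment at 0.05, was run on the 6 arrays with and without the array letter as a replicate block, and it compares these pools, not the conditions. Python 3.11.15, numpy 2.4.6, pandas 2.3.3, matplotlib 3.10.9, R 4.3.3 and limma 3.58.1 were used.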

Additional observations from a re-analysis of the deposited data

How the results depend on the processing

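Under other scalings, floors, filters and sets of arrays, 4 of 308 values of single annexin probe sets moved beyond the array spread. All 4 came from rescaling (2 each for Anxa2 and the shared Anxa11 probe set). Dropping arrays cannot move a value that far and floors changed few, so the other 304 say little of stability. Of the 308, 0 called and 6 uncalled changed sign, for Anxa1 (93037_i_at), Anxa6, Anxa7 and the shared Anxa11 probe set. An Anxa11 value is in both the 6 and the 4. At a 3-fold threshold the annexin probe sets called were 1 (eccentric against control), 0 (isometric against control) and 0 (eccentric against isometric), where 1.24%, 0.177% and 0.366% of all probe sets tested passed it. At 1.5-fold they were 7, 5 and 4, where 19.6%, 6.69% and 12.5% of all passed. With 1 array left out, the count was 5 to 6 for eccentric against control, 0 to 1 for isometric against control and 1 to 2 for eccentric against isometric, and the median log2 difference of eccentric against control was 0.85 to 1.201, the highest without control B. Fewer array pairings had to go the same way in these settings, and 1 array above the floor sufficed for its pool. The share of all probe sets called there was not computed, so these counts are no measure of stability. With the brightest probe set of each gene, 0 of 7 were called for isometric against control. limma called 5 annexin probe sets for eccentric against control, the same 5 as the size rule, both without and with the replicate block, and 8.6% and 4.31% of all probe sets tested. For isometric against control limma called 0 annexin probe sets and 0 of all 7336, without and with the replicate block. At an unadjusted p below 0.05 it had 4 annexin probe sets each time, beside 10.5% and 9.28% of all. For eccentric against isometric it called 0, without and with the replicate block, beside 0.909% and 0.122% of all, and 4 passed unadjusted each time, beside 19.1% and 17.1% of all. The A minus B differences correlated across probe sets at 0.03 (eccentric and control), -0.11 (isometric and control) and -0.04 (eccentric and isometric), and the letters were not taken to pair the arrays. With crossed letters for the isometric pool, chosen after seeing the data, limma called 0 for isometric against control and 0 for eccentric against isometric, with 5 and 4 at an unadjusted p below 0.05, beside 805 and 1454 of all probe sets. The cause of these changes was not tested beyond the thresholds themselves. Signals near or below the floor, those of the dimmer Anxa7 and the dim Anxa1 probe set, limit what can be said of these members. Control signals of Anxa3, Anxa4 and the brighter Anxa7 probe set, at 273.4 to 449.5, also lay nearer the floor than those of Anxa2, Anxa5 and Anxa6.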
